A study of Homo sapiens with 7 samples.

Results

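The genes ZNF823, RGPD2 and ZNF630 carried methylated CpGs at their 5′ ends in wild-type (WT) human embryonic stem cells, and most of that methylation was missing in cells without TET1, TET2 and TET3 (triple knockout, TKO). The genes were chosen for this loss, so every difference between TKO and WT below describes them and is not tested. Their CpGs were taken from 1 fixed span per gene on the hg19 build. Listed CpGs ran from 11843080 to 11852081 on chromosome 19 (ZNF823), from 88124258 to 88125012 on chromosome 2 (RGPD2) and from 47928477 to 47931300 on chromosome X (ZNF630). The spans held 150 CpGs of the 2587280 seen in any library, with 69 for ZNF823, 49 for RGPD2 and 32 for ZNF630. Of these, 82 were covered by 10 or more reads in each of the 7 libraries (45, 21 and 16), out of 1734500 such CpGs in the series.

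Methylation was read by enhanced reduced representation bisulfite sequencing, which samples CpG-rich fragments and reads unmethylated cytosine as T. HUES8 cells, a human embryonic stem cell line in wide use, were taken through a monolayer differentiation to heart muscle with an activator of Wnt signalling (CHIR99021) followed by a Wnt antagonist (IWP2). WT was sampled on day 0 in the undifferentiated state (SC), on day 3 at the cardiac mesoderm stage (CME), on day 8 at the cardiac progenitor stage (CP) and on day 14 as cardiomyocytes (CM). TKO cells, labelled TET1/2/3 KO, were sampled at SC, CME and CP, since per the series text they form no beating cardiomyocytes. Each genotype and stage has 1 library and no replicate, and the sources used here do not say whether the TKO line is a single clone. The WT CM library has day 14 in the series text, a label of D15 and a source label that names CME, so its stage rests on its title. The files hold no sequence or expression, so neither the knockout nor the cell types were checked.

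TET enzymes oxidise 5-methylcytosine, which starts its removal from DNA, and they are best known for keeping CpG-rich promoters and enhancers free of methylation. ZNF823 and ZNF630 encode zinc finger proteins of the KRAB type, a large family of DNA-binding repressors that recruit the corepressor TRIM28 and the histone methyltransferase SETDB1, mostly to transposable elements. RGPD2 belongs to a family of RANBP2-like proteins with GRIP domains, whose genes arose by segmental duplication and are nearly identical to each other. CpG-rich promoters are mostly unmethylated in embryonic cells, and a methylated one is usually silent. Expression was not measured here.

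The RefSeq promoter table (GRCh38.p14) holds ZNF823 and ZNF630, 2 of the 3 genes, and gives 2 starts for ZNF630. RGPD2 has no entry. The sequences below are shown because the ZNF630 promoters hold most of the CpGs that separate the genotypes there, and the ZNF823 promoter lies directly upstream of its own. Each runs 5′ to 3′ on the minus strand, from 250 bases before to 50 bases after the gene start, and capitals mark the CpGs listed in at least 1 library.
ZNF630 outer start, GRCh38.p14 chrX:48071591-48071890, minus strand: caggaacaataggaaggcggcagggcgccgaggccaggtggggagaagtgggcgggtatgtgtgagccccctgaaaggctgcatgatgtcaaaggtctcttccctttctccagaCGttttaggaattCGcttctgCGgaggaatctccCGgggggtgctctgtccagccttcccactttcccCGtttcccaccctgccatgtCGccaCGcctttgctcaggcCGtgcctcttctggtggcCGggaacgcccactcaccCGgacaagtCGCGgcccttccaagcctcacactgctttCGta
ZNF630 inner start, GRCh38.p14 chrX:48071092-48071391, minus strand: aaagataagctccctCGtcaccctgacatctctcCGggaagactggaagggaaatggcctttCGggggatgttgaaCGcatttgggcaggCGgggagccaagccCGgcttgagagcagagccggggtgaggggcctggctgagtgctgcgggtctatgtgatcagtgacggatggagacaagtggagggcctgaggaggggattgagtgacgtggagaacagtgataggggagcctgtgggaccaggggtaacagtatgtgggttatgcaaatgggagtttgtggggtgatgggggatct
ZNF823, GRCh38.p14 chr19:11738897-11739196, minus strand: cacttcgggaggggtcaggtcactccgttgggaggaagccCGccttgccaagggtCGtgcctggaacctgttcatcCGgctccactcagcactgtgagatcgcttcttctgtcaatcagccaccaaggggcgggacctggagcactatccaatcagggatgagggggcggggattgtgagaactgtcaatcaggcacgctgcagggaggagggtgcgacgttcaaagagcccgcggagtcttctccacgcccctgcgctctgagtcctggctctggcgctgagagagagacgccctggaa
The promoters were found in the hg19 files by the spacing of their CpGs alone, without converting coordinates. The outer ZNF630 promoter matched at hg19 chrX:47930958-47931257, with 13 of its 18 CpGs listed, against 4 at the next best place on the chromosome. The inner one matched at hg19 chrX:47930459-47930758, with 6 of its 10 CpGs listed, against 3. The ZNF823 promoter has 17 CpGs, of which 3 were listed, and these fitted best at hg19 chr19:11849712-11850011 within the 5′ window (1 at the next best place). That placement rests on few CpGs and is less sure than the others.

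The base composition of these promoters was close to that of other promoters. ZNF823 had a GC content of 62.0%, the outer ZNF630 promoter 61.3% and the inner one 58.3%, against a median of 58.7% over 35116 RefSeq promoters of 300 bases. Their 17, 18 and 10 CpGs lay between the quartiles of 4 and 28 CpGs (median 14). The GC box, searched as GGGCGG on both strands, occurred 2 times in the ZNF823 promoter, 1 time in the outer ZNF630 promoter and 0 times in the inner one, and 44.95% of all promoters held it at least once. A match of letters is a description and no evidence that a factor binds.

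Levels below are methylated reads as a percent of methylated plus unmethylated reads, with both strands of a CpG summed and 95% Wilson intervals in parentheses. Where no stage is named, levels follow the order SC, CME, CP and, for WT, CM. A tile is a fixed 1 kb stretch holding at least 5 CpGs with 10 or more reads in each library. A tile was called lower or higher at 25 percentage points or more and an adjusted p under 0.01 (Fisher's exact test with Benjamini-Hochberg adjustment over 85087 tiles). Such a test compares a pair of libraries, not conditions, and intervals cover counting error only. They are too narrow, since a read spanning several CpGs counts at each and PCR copies are not separate molecules.

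The median depth over shared CpGs ran from 45 reads in WT SC to 94 in TKO CME. C reads at mitochondrial CpGs, taken as a measure of cytosine left unconverted, made up 1.46% in WT SC, 1.44% in WT CME and 0.139% to 0.387% in the other 5 libraries. WT SC and WT CME also listed CpGs that the others lacked (6 in the ZNF823 span, 7 in RGPD2 and 1 in ZNF630), while 11 RGPD2 CpGs were listed in the other 5 and not in these. The labels of these 2 libraries carry a suffix (BS) that the others do not have. The CP pair has neither difference.

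Of all 85087 tiles, 0.119% were called lower in TKO at SC, 0.0846% at CME and 0.0458% at CP, and 21 tiles (0.0247%) were lower at all 3 stages. Calls in the other direction were more common, at 6.26% of tiles at SC, 6.02% at CME and 12% at CP. All 3 genes had their 5′ tile among the 21 lower ones, and since the genes were picked by this contrast nothing is read from that. For the size of the threshold, the called tile nearest to it differed by -25.06 points at SC and the nearest tile short of it by -24.84 points. Tile levels count only CpGs shared by all 7 libraries. Among 49841 tiles at 50% or more in WT at SC, CME and CP, 2 were under 10% in TKO at each of those stages, the 5′ tiles of ZNF630 and RGPD2, and both lay under 2%. For RGPD2 this leaves out a block, described below, that kept more. The ZNF823 tile was under 10% at SC and CME only.

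ZNF630 showed the most complete loss. Its 5′ tile (hg19 chrX:47930001-47931000, 9 shared CpGs) stood at 73.6% (68.0 to 78.5) in WT SC, 93.1% (89.6 to 95.4) in WT CME, 86.5% (82.6 to 89.6) in WT CP and 90.1% (86.9 to 92.6) in WT CM. In TKO it stood at 1.09% (0.528 to 2.23) at SC, 1.36% (0.740 to 2.48) at CME and 0.767% (0.261 to 2.23) at CP. All 4 WT libraries were high and all 3 TKO libraries were close to 0, with no overlap. TKO minus WT was -72.5 points at SC (interval of the difference -77.5 to -66.8), -91.7 at CME (-94.1 to -88.1) and -85.7 at CP (-88.8 to -81.6).

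**Figure D1:**
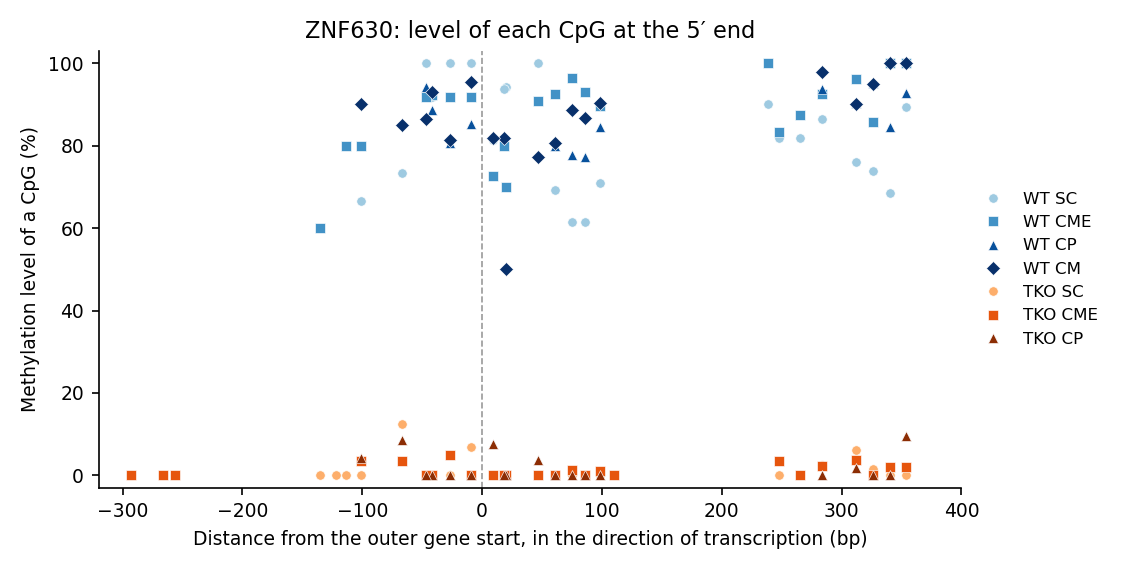
Methylation level (%) of each CpG listed around the ZNF630 start, by distance in bp from the outer gene start in the direction of transcription, with 1 point per CpG and library and the dashed line at the start. WT points (blue) lie between 50% and 100% and TKO points (orange) at or under 12.5% on both sides of the start.

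The loss covered every CpG measured in both genotypes across the ZNF630 start region. Single CpGs here count as lower at 25 points or more with no test, which 0.98% of all CpGs met at SC, 1.16% at CME and 0.461% at CP (1.85%, 2.27% and 0.998% of those at 50% or more in WT). At SC, 21 of the 24 CpGs of the 5′ window (the 6 kb at the 5′ side of the span) were lower, at CME 20 of 23 and at CP 13 of 16. They formed 1 unbroken run each time, over 456 bp at SC and CME (hg19 chrX:47930653-47931108) and 402 bp at CP (to 47931054). Within the run the TKO level was 1.04% (0.608 to 1.77) at SC, 1.15% (0.697 to 1.89) at CME and 0.518% (0.176 to 1.51) at CP, against WT levels of 79.4%, 90.8% and 86.7%. Of the run's CpGs, 16 of 21 had no methylated read in TKO SC, 11 of 20 in TKO CME and 11 of 13 in TKO CP. No CpG of the run exceeded 12.5% in TKO. With 20 reads per CpG as the minimum, 7 CpGs at SC and 11 at CME were lower, since fewer were measured.

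Both ZNF630 start sites printed above shared the loss. The 13 listed CpGs of the outer promoter gave 89.7% (83.6 to 93.6) in WT SC, 85.3% (79.2 to 89.8) in WT CME, 87.1% (80.6 to 91.7) in WT CP and 84.1% (79.5 to 87.8) in WT CM. The same promoter gave 1.06% (0.488 to 2.30), 0.923% (0.395 to 2.14) and 1.79% (0.821 to 3.84) in TKO. The inner promoter gave 78.7%, 92.7%, 92.4% and 94.7% over the WT stages and 2.27%, 1.90% and 1.57% over the TKO stages. The CpGs counted differ between libraries, from 4 in WT CP to 13 in TKO SC for the outer promoter.

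Single CpGs show how even the ZNF630 loss was. The CpG at 47930909 stood at 70.8%, 89.7%, 84.4% and 90.3% in WT, and at 0%, 1.01% and 0% in TKO, on 50 to 107 TKO reads. Next to the outer start, the CpG at 47931054 stood at 100%, 91.7%, 94.3% and 86.4% in WT and at 0% in each TKO library, on 44 to 61 reads. These CpGs separate the genotypes in full. The largest residual level lay at the outer end, where the CpG at 47931074 read 12.5% in TKO SC on 24 reads, against 73.3% in WT SC and 85.0% in WT CM.

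The far edges of the ZNF630 loss were not reached by listed CpGs. Upstream, the CpGs at 47931263, 47931273 and 47931300 were listed in TKO SC and TKO CME alone and stood at 0% on 20 to 24 reads each, so no WT level stands beside them. On the gene body side, 2148 bp without a listed CpG separate the run from the CpG at 47928505, which was at 0% in all 7 libraries. Its neighbours at 47928477 and 47928481 were methylated in both genotypes. Together these neighbours stood at 92.3% (81.8 to 97.0), 97.1% (90.0 to 99.2), 95.7% (85.8 to 98.8) and 95.2% (88.3 to 98.1) in WT and at 97.8% (88.4 to 99.6), 81.4% (72.6 to 87.9) and 94.2% (87.9 to 97.3) in TKO. TKO was the lower of the genotypes at CME, and the intervals overlapped at SC and CP.

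RGPD2 lost nearly as much, in a short CpG-dense stretch. All 49 listed CpGs of its span lay in hg19 chr2:88124258-88125012, and the rest of the span had none. The 5′ tile (hg19 chr2:88124001-88125000, 17 shared CpGs) stood at 70.8% (66.9 to 74.4) in WT SC, 81.8% (78.5 to 84.7) in WT CME, 76.1% (73.2 to 78.7) in WT CP and 87.6% (85.3 to 89.5) in WT CM. In TKO it stood at 1.49% (0.682 to 3.20), 1.41% (0.807 to 2.44) and 1.10% (0.613 to 1.95) at SC, CME and CP. The shared CpGs leave out the block at 88124926 to 88124959 of this tile, which WT SC and WT CME did not list. That block kept 24.6%, 31.7% and 31.2% in TKO, so the tile levels understate what TKO kept. The genotypes did not overlap. TKO minus WT was -69.3 points at SC (-73.0 to -65.1), -80.4 at CME (-83.4 to -77.0) and -74.96 at CP (-77.6 to -72.0).

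**Figure D2:**
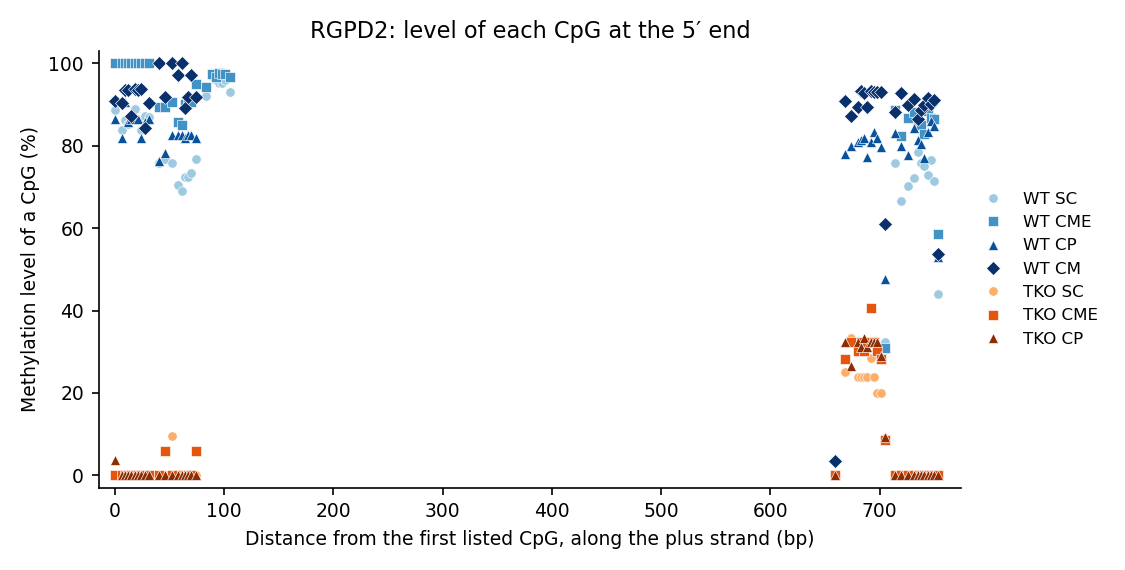
Methylation level (%) of each CpG listed in the RGPD2 span, by distance in bp from the first listed CpG along the plus strand, with 1 point per CpG and library. TKO points (orange) lie near 0 in the outer blocks and between 20% and 40.6% in 1 inner block, while WT points (blue) lie mostly between 66.7% and 100%.

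CpG by CpG, 20 of 21 measured CpGs were lower in TKO at SC, 30 of 31 at CME and 41 of 42 at CP. The exceptions were the CpG at 88124963 at SC and CME, which stood at 32.4% and 30.9% in WT against 9.09% and 8.62% in TKO, and the CpG at 88124917 at CP, which was at 0% in both. Unbroken runs of lower CpGs were short, 41 bp at SC, 75 bp at CME and 87 bp at CP, but spanned 715, 755 and 755 bp when 1 CpG in a row could miss the threshold. With 20 reads per CpG, 11 CpGs were lower at CME. Most of the other CpGs fell into 4 blocks with different levels. In the block at 88124258 to 88124332 (19 CpGs over 75 bp) WT stood at 81.0%, 95.4%, 83.6% and 93.3% over its stages. TKO stood there at 1.03% (0.283 to 3.68), 0.647% (0.178 to 2.33) and 0.178% (0.0314 to 1.001) at SC, CME and CP. The block at 88124341 to 88124363 was listed in WT SC (94.9%) and WT CME (96.8%) and in no other library, so it has no TKO value.

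The RGPD2 blocks next to the 88125012 end differed from each other. In the block at 88124972 to 88125008 (10 CpGs over 37 bp) WT stood at 73.5% (68.7 to 77.8), 86.1% (82.9 to 88.8), 81.8% (79.1 to 84.3) and 90.0% (87.5 to 92.0). TKO had no methylated read there, in 236 reads at SC, 827 at CME and 833 at CP, which allows up to 1.60%, 0.462% and 0.459% (upper Wilson limits), and 3 reads would make 1.27%, 0.363% and 0.360%. Each of its 10 CpGs was at 0% in TKO. Just 13 bp away, the block at 88124926 to 88124959 (10 CpGs) kept 24.6% (19.3 to 30.9), 31.7% (26.9 to 36.9) and 31.2% (26.3 to 36.7) in TKO. WT stood there at 80.5% (76.5 to 84.0) in CP and 91.6% (89.0 to 93.6) in CM, and the block was not listed in WT SC and WT CME. The TKO levels of the block spanned 20% to 40.6% over single CpGs.

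The letters of this stretch could not be shown, and reads from near-identical copies may have been placed at it. The spacing of the RGPD2 CpGs repeats itself, and a search for the repeated unit along chromosome 2 found it 3 times in this stretch, 1 time in the same direction at 234263193 to 234263227 and 2 times in the opposite direction at 87141204 to 87141302. The opposite copy was methylated in TKO, to a degree that varied. Its unit at 87141204 to 87141253 stood at 80.1%, 70.0%, 68.8% and 68.0% in WT and at 90.9%, 40.0% and 70.2% in TKO. The unit at 87141253 to 87141302 stood at 93.6%, 92.6%, 85.9% and 90.2% in WT. In TKO that unit stood at 88.4% at CME and 86.8% at CP, with no value at SC. Over 38 shared CpGs of hg19 chr2:87141106-87142021, minus-strand cytosines stood at 93.6%, 94.9%, 93.2% and 92.9% in WT and at 82.3%, 92.0% and 93.6% in TKO. With both strands summed the same CpGs read 47.6% in WT SC and 47.4% in WT CME, against 92.9% in WT CP and 87.6%, 90.2% and 93.5% in TKO, and plus-strand cytosines alone read 33.0% in WT SC and 34.9% in WT CME. In TKO CME, 12 of the 98 CpGs listed there were at 0%. The copy in the same direction stood at 1.49% or less in every library. Whether reads were shared between copies was not tested.

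Strands also differed within RGPD2. In the block at 88124972 to 88125008, plus-strand cytosines stood at 63.5%, 76.5%, 67.4% and 86.3% in WT, and minus-strand ones at 82.3%, 91.2%, 92.9% and 92.8%. Both strands were at 0% in TKO CME and TKO CP, and TKO SC had minus-strand reads only. The loss was therefore present on whichever strand was read.

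ZNF823 kept part of its methylation. Its 5′ tile (hg19 chr19:11849001-11850000, 21 shared CpGs) stood at 66.9% (64.3 to 69.4) in WT SC, 72.2% (69.8 to 74.6) in WT CME, 67.0% (64.1 to 69.8) in WT CP and 77.9% (75.7 to 79.9) in WT CM. In TKO it stood at 9.53% (8.07 to 11.2) at SC, 8.75% (7.51 to 10.2) at CME and 21.5% (19.3 to 23.9) at CP. The genotypes did not overlap, but each TKO level was above the 5′ tile levels of the other genes over shared CpGs. TKO minus WT was -57.3 points at SC (-60.3 to -54.2), -63.5 at CME (-66.1 to -60.6) and -45.5 at CP (-49.003 to -41.7).

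**Figure D3:**
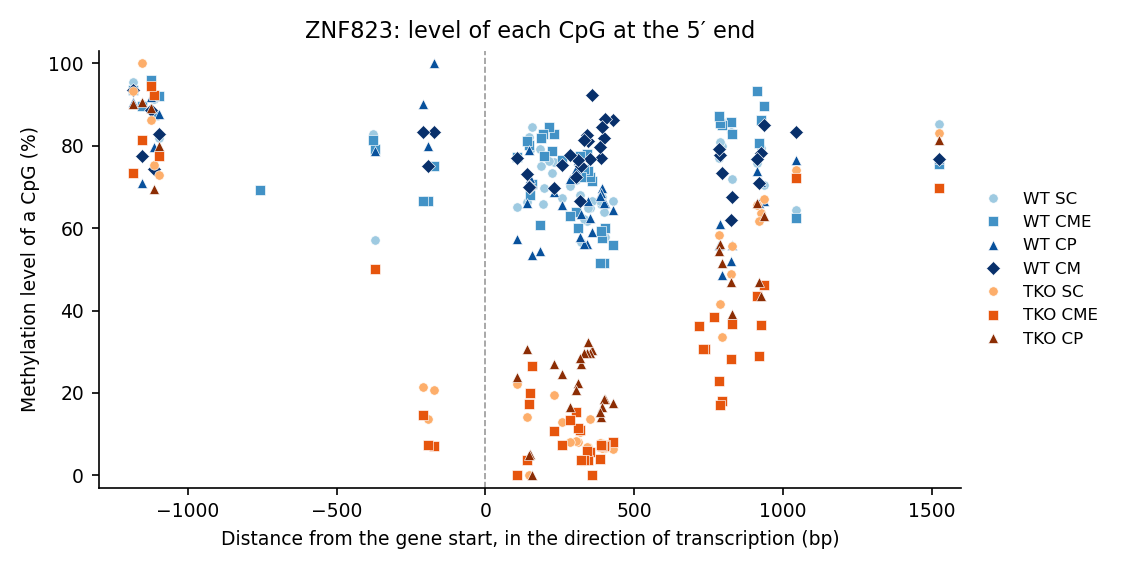
Methylation level (%) of each CpG listed in the ZNF823 5′ window, by distance in bp from the placed gene start in the direction of transcription, with 1 point per CpG and library and the dashed line at the start. TKO points (orange) lie at or under 32.4% just inside the gene start and rise towards both sides.

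The measured width of the ZNF823 loss differed between the stages, and so did the CpGs measured. At SC, 25 of 40 measured CpGs were lower, with the longest run of 21 CpGs over 322 bp (hg19 chr19:11849333-11849654). At CP, 24 of 38 were lower, and the longest run of 23 CpGs covered the same 322 bp. At both stages the next measured CpG lay 357 bp away on the gene side. Upstream it lay 479 bp away at SC and 1205 bp away at CP, so the ends of these runs are known no more finely. At a threshold of 40 points the CP count was 14 and the run 164 bp, and with 1 missed CpG allowed the SC run was 718 bp. At CME, 36 of 43 were lower in 1 run over 1310 bp (hg19 chr19:11848824-11850133), which reached into the flanks on both sides. The ends of that run, at 11848824 and 11850133, were also measured in both genotypes at SC, where they differed by -3.37 and -7.14 points. The 3 listed CpGs of the promoter printed above, at 11849934, 11849955 and 11849970, together stood at 69.6% (55.2 to 80.9) in WT CME, 90.0% (74.4 to 96.5) in WT CP and 80.6% (65.0 to 90.2) in WT CM, and at 18.6% (11.8 to 28.1) in TKO SC and 9.68% (5.62 to 16.2) in TKO CME, on 30 to 124 reads. They were not listed in WT SC and TKO CP, so CME alone has both genotypes.

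Inside the ZNF823 run the CpGs differed in how much they kept. The CpG at 11849376 stood at 66.7%, 51.6%, 67.9% and 79.7% in WT and at 7.79%, 4.08% and 15.5% in TKO. The CpG at 11849531 kept more, with 19.6%, 10.8% and 27.0% in TKO against 76.1%, 82.8%, 68.9% and 69.7% in WT. Of the run's CpGs, 2 of 21 were at 0% in TKO SC and 1 of 23 in TKO CP, on 10 and 20 reads. Most CpGs of the ZNF823 run thus kept some methylation in TKO.

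On the flanks of ZNF823 the differences were smaller than in the 5′ tile, least so on the gene side at CME. The tile on the gene side (hg19 chr19:11848001-11849000, 10 shared CpGs) stood at 78.9% (74.0 to 83.2), 84.5% (80.5 to 87.8), 61.3% (57.5 to 65.0) and 74.8% (71.5 to 77.8) in WT. In TKO it stood at 57.9% (54.7 to 60.9), 34.2% (31.3 to 37.2) and 55.6% (51.5 to 59.5). TKO minus WT was -21.1 points at SC, -50.3 at CME and -5.77 at CP, and past 25 points at CME alone. At SC the tile's CpGs at 11848937, 11848966 and 11848973 differed by -34.4, -46.3 and -39.2 points, and its other CpGs by less than 25. At CP only its CpG at 11848833 was past 25 points, at -27.6. Upstream, the tile at hg19 chr19:11850001-11851000 (5 shared CpGs) stood at 91.4%, 91.6%, 85.3% and 83.2% in WT and at 80.3%, 86.2% and 82.6% in TKO. None of its differences reached 25 points, but that at SC was -11.1 points with an interval of -17.4 to -4.18 that excludes 0. Farther upstream the CpG at 11852037 was lower by 25 points or more at SC, with 90.0% in WT on 10 reads and 63.2% in TKO on 19, and the CpG at 11852081 was higher in TKO, with 60.0% and 73.7%. In the gene body, the tile at hg19 chr19:11843001-11844000 (9 shared CpGs) stood at 88.2% to 90.6% in WT and 86.4% to 91.1% in TKO, and the intervals of its 3 differences all included 0. The single CpG between the body tile and the gene-side CpGs, at 11848238, stood at 75.5% to 85.2% in WT and 69.8% to 83.2% in TKO.

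**Figure D4:**
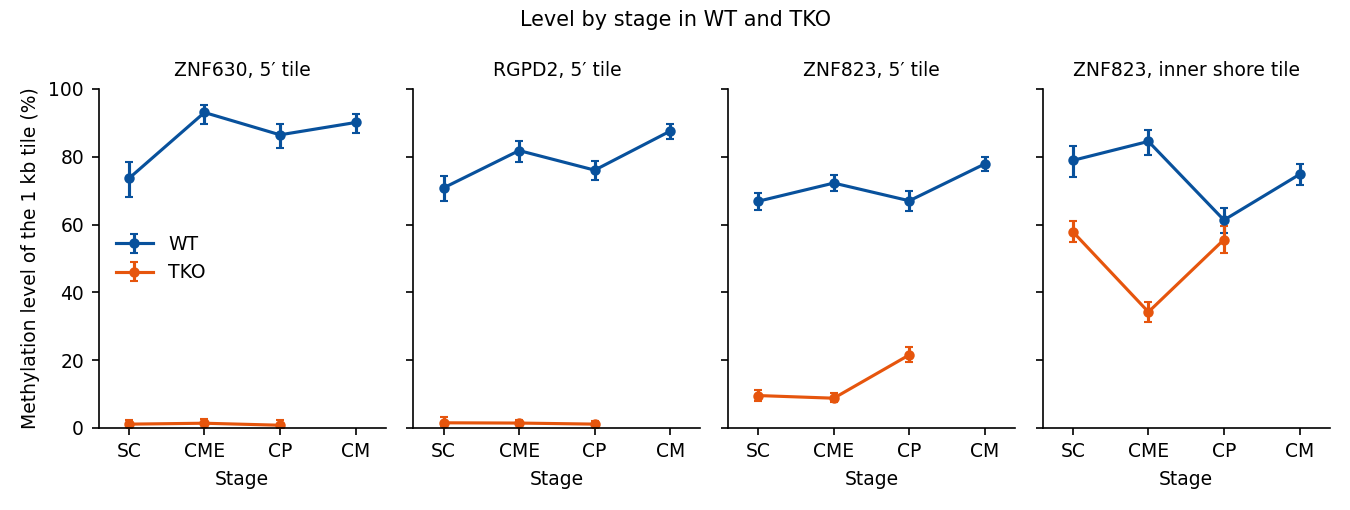
Methylation level (%) of the 5′ tile of each gene and of the gene-side tile of ZNF823 (inner shore) by stage, in WT (blue) and TKO (orange), with 1 library per point and 95% Wilson intervals as bars. Over CpGs shared by all 7 libraries, ZNF630 and RGPD2 stay under 2% in TKO at each stage, and the ZNF823 tiles move between TKO stages.

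The genes were chosen by TKO against WT and not by steps between stages within a genotype, so these steps were tested. They are not independent of the choice, which drew on levels of the same libraries. A tile almost free of methylation in TKO also had little room to fall. None of the 3 genes' 5′ tiles was called in any of 6 steps, since none moved by 25 points. Over all tiles, 0.0118% were called lower and 0.0282% higher from WT SC to WT CME, 3.38% and 0.0294% from WT CME to WT CP, and 0.0223% and 0.0306% from WT CP to WT CM. From WT SC to WT CM 2.81% were lower and 0.126% higher. In TKO 0.0188% were lower and 0.0223% higher from SC to CME, and 0.0599% and 0.772% from CME to CP. The WT level of each gene's 5′ tile nevertheless ended above its start. From WT SC to WT CM, ZNF630 differed by 16.5 points (10.7 to 22.6), RGPD2 by 16.8 (12.5 to 21.1) and ZNF823 by 11.0 (7.70 to 14.3), each with an adjusted p of 8.27e-08 or less by Fisher's exact test. For ZNF823 this rise lay on plus-strand cytosines (65.4% to 81.7%), while minus-strand ones stood at 68.7% and 69.4%. The largest step of a 5′ tile between neighbouring stages was that of ZNF630 from WT SC to WT CME, 19.5 points (13.5 to 25.5). Other stretches did not all rise from WT SC to WT CM. The outer ZNF630 promoter went from 89.7% to 84.1%, over the same 10 CpGs. The inner one went from 78.7% over 6 CpGs to 94.7% over 5. The ZNF823 gene-side tile differed by -4.14 points (-9.49 to 1.68). These steps are between libraries, and WT SC had the most unconverted cytosine and the lowest depth, whose part was not tested.

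In TKO the ZNF630 and RGPD2 5′ tile levels over shared CpGs did not move measurably. The steps of ZNF630 were 0.270 points (-1.03 to 1.53) from SC to CME and -0.591 (-1.82 to 0.998) from CME to CP, and those of RGPD2 -0.0783 (-1.90 to 1.23) and -0.310 (-1.45 to 0.736). The RGPD2 block at 88124926 to 88124959, not among the shared CpGs, stood at 24.6% (19.3 to 30.9), 31.7% (26.9 to 36.9) and 31.2% (26.3 to 36.7) in TKO. ZNF823 was different from CME to CP, where its 5′ tile was higher by 12.8 points (10.2 to 15.5) and its gene-side tile by 21.4 points (16.3 to 26.3), with adjusted p of 3.34e-21 and 5.05e-15 by Fisher's exact test. From TKO SC to TKO CME the ZNF823 5′ tile differed by -0.782 points (-2.88 to 1.25). With tiles shifted by 500 bp the difference was -12.5 points, over a tile that takes in CpGs of the gene-side tile. The gene-side tile differed over that step by -23.7 points (-27.9 to -19.3). Both WT tiles moved the other way from CME to CP, by -5.23 points (-8.94 to -1.52) and -23.2 points (-28.3 to -17.8). In the 5′ tile the WT fall lay on minus-strand cytosines (79.3% to 65.5%), while plus-strand ones stood at 66.4% and 67.7%. None of these steps reached the 25 points needed for a call.

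Read depth did not choose the genes, and it differed between the genotypes. Reads per CpG in the 5′ tile, relative to the library's median CpG, were 1.24, 1.37 and 1.05 times as high in TKO as in WT for ZNF630 at SC, CME and CP. For RGPD2 the ratios were 0.377, 0.802 and 1.10, and for ZNF823 0.532, 0.751 and 1.18. Its part in the differences in level was not tested.

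Promoters of related genes were measured where their CpG spacing could be placed on hg19. Of 13444 placed promoters with 3 or more shared CpGs, 0.149% were lower in TKO by 25 points or more at SC, 0.119% at CME and 0.112% at CP, while 3.81%, 3.79% and 5.65% were higher by as much, and the median difference was -0.765, -0.704 and 0.149 points. Their median level in WT SC was 1.33%, so many could not have been lower by 25 points. Among 23 zinc finger genes that neighbour ZNF823 in 19p13.2, 14 had a measured promoter, and 8 of these were too low in WT to fall by 25 points. None of the 14 was lower at SC or CME, and 1 was at CP, ZNF440, which stood at 79.4% in WT and 54.3% in TKO. Its differences at SC and CME were -11.9 and -12.7 points, and with 20 reads per CpG it fell short of 25 points at CP too. The list's median difference was -1.22, -1.21 and 0.229 points.

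**Figure D5:**
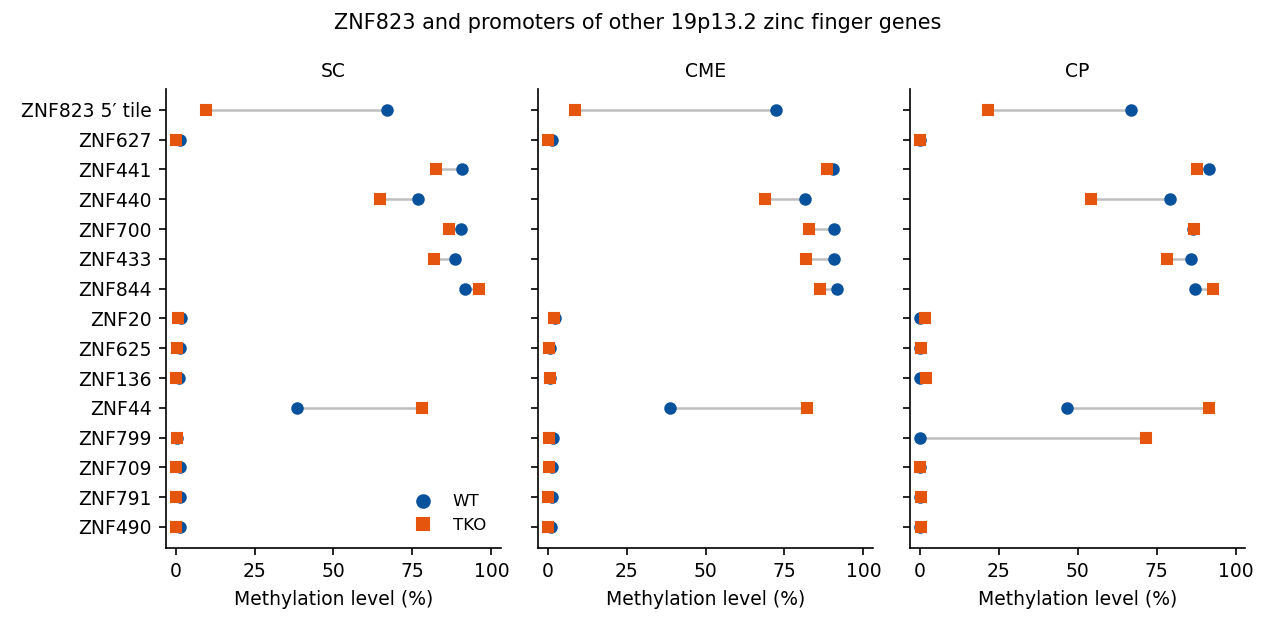
Methylation level (%) of the ZNF823 5′ tile and of 14 promoters of other zinc finger genes of 19p13.2 in WT (blue circles) and TKO (orange squares) at SC, CME and CP, with 1 library per point and a grey line joining the genotypes. ZNF823 falls far in TKO, while most neighbours keep their WT level and ZNF44 and, at CP, ZNF799 are higher in TKO.

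The neighbours of ZNF823 fell into those methylated in WT and those not. In the 5 promoters that were methylated in WT (ZNF441, ZNF440, ZNF700, ZNF433 and ZNF844) levels ran from 76.8% to 91.8% in WT SC and from 64.9% to 96.1% in TKO SC. At SC their differences ran from -11.9 points (ZNF440, the lowest of the list) to 4.31 points. At CP they ran from -25.1 to 5.91 points, with TKO levels from 54.3% to 93.0% and WT levels from 79.4% to 91.5%. In 8 promoters WT levels stayed at or under 2.34% at each stage, and TKO levels did at SC and CME. At CP, ZNF799 stood at 0% in WT and 71.7% in TKO. ZNF44 was higher in TKO throughout, with 38.4%, 38.8% and 46.6% in WT SC, CME and CP against 78.0%, 82.0% and 91.5% in TKO, and its 39.6 points at SC were the highest difference of the list. ZNF490 and ZNF791 have overlapping promoters and share reads.

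The other lists were thinly covered. Of 6 zinc finger genes of Xp11 near ZNF630, 2 were measured (ZNF674 and ZNF41) and both were at or under 1.29% in every library. Of 7 genes related to RGPD2, only RANBP2, the nucleoporin gene from which the family derives, was measured, at 0.0981% to 2.76%. Of 7 genes of KRAB corepressors, CBX1 and CBX3, which encode heterochromatin proteins, were measured, and both stayed at or under 1.30%. None of these 5 promoters was higher by 25 points at any stage, and at such WT levels none could have been lower by as much.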

How the data were processed

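DNA methylation was profiled in 7 libraries, 1 per genotype and stage, so no replicate spread exists. Alignment and calling were done by a core facility per the labels' protocols, on hg19 per the submitters' processing notes. The aligner is not given in the sources used here, nor is how reads with several matches were placed. Per the file headers, the deposited files give for each CpG cytosine and strand its coverage, a raw read count, and the percent of reads called C and T by the authors. The lowest count listed was 10.

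Counts of C and T were recovered from coverage and percent, and strands were summed. Tools were scipy 1.17.1, numba 0.67.0, numpy 2.4.6 and pandas 2.3.3 under Python 3.11.15, with matplotlib 3.10.9 for plots. Levels have Wilson intervals and differences Newcombe intervals at 95%. Stage steps were tested by Fisher's exact test, two-sided, over 85087 tiles with Benjamini-Hochberg adjustment. On simulated reads for WT CM minus WT SC over these tiles, the test found 99 of 100 tiles set to differ by 40 points, 97 of 100 at 30 points, and called 0 of 84887 unchanged ones. The simulated reads were independent, with the same level in both libraries at unchanged tiles. Linked reads, PCR copies and differences between libraries were left out, so the simulation does not measure false calls in the real data.

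RefSeq promoters (GRCh38.p14) were placed on the files' positions by CpG spacing where 6 or more listed CpGs matched, no listed CpG was unmatched and the lead over the next best place was 3 or more. This placed 14113 of 35116 promoters, and 99.8% kept the same distance to a neighbouring placed promoter. The ZNF823 promoter was placed by its best match within the 5′ window alone.

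The genes and lists were chosen with earlier results of these data known. All 3 genes are always named, with listed promoters lower in TKO at any stage and the highest and lowest of each list at SC. The block boundaries within the genes were set after seeing the values. Alternatives were 20 reads per CpG, single strands, means over CpGs, CpGs of the compared pair, 40 points, 1 missed CpG in a run, tiles shifted by 500 bp and depth relative to the chromosome.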

Additional observations from a re-analysis of the deposited data

Results flagged for a closer look

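At ZNF823, with strands summed, the genotypes moved in opposite directions from CME to CP. In the gene-side tile (hg19 chr19:11848001-11849000) TKO went from 34.2% to 55.6% while WT went from 84.5% to 61.3%, so the TKO step exceeded the WT step by 44.58 points. In the 5′ tile (hg19 chr19:11849001-11850000) TKO went from 8.75% to 21.5% and WT from 72.2% to 67.0%, and the steps differed by 18.02 points. That WT step had an adjusted p of 0.0129, or 0.148 with 20 reads per CpG (Fisher's exact test). By strand, WT went from 79.3% to 65.5% on the minus strand and from 66.4% to 67.7% on the plus strand. TKO rose on both strands, from 9.21% to 25.5% and from 8.54% to 20.1%. Each point is 1 library, and the difference between the steps was not tested.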

How the results depend on the processing

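Of 164 alternative values for 57 results, 137 kept their direction and, for the stage steps, their side of the threshold, for counts and run lengths stayed within 1.5 times, and for other values stayed within the counting interval. Some of the 137 could not have come out otherwise. The setting of 40 points could not change a stage step, since none reached 25 points. For ZNF823 and RGPD2 at SC and ZNF630 at CP, the CpGs of the compared pair were those of the main setting. Steps that stayed short of 25 points could still change in size. For ZNF823 that from TKO SC to TKO CME went from -0.782 to -12.5 points with shifted tiles (adjusted p 5.24e-19, Fisher's exact test), that from WT CME to WT CP from -5.23 to -9.15 with shifted tiles, and that from WT SC to WT CME from 5.37 to 1.69 as a mean of CpG levels. The shifted ZNF823 tile takes in CpGs of the gene-side tile. Single strands moved the ZNF823 difference between TKO and WT to -51.4 points at SC, -70.1 at CME and -40.0 at CP on the minus strand and to -56.4 at CME on the plus strand. They moved that of ZNF630 to -87.4 at CME and -93.0 at CP (minus) and -81.4 at CP (plus), and that of RGPD2 to -75.7 at CME and -66.3 at CP (plus) and -79.1 at CP (minus). RGPD2 also read -77.0 at CME with 20 reads per CpG, -78.5 at CP as a mean of CpG levels, and -85.6 at CME and -69.8 at CP over the CpGs of the compared pair. With 20 reads per CpG, fewer CpGs were measured and the lower ones numbered 11 for RGPD2 at CME and 7 and 11 for ZNF630 at SC and CME. That setting also left 0 listed promoters lower at CP, since ZNF440 fell short of 25 points. At 40 points ZNF823 at CP had 14 lower CpGs and a run of 164 bp. When 1 CpG in a row could miss the threshold, runs were 718 bp for ZNF823 at SC and 715, 755 and 755 bp for RGPD2 at SC, CME and CP. The near-zero TKO steps of RGPD2 changed sign, to 0.104 points from SC to CME as a mean of CpG levels and to 0.131 with 20 reads and 0.0872 with shifted tiles from CME to CP. The cause was not tested beyond what each setting changes. Depth limits single CpGs most, many of which rest on 10 to 20 reads. No paired analysis was possible because no group has a second library.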
